A study of Mus musculus with 8 samples.

Results

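The complement genes described here were C1qa, C1qb and C1qc, which encode the 3 chains of C1q, and C3, Cfb and Cfp, which encode complement C3, factor B and properdin of the alternative pathway. The 6 genes were chosen by name, with a rise during culture already known for the group. Their values at 12 h against 4 h are therefore given as a description without a test. Probe sets annotated to exactly 1 of these symbols were taken, and the brightest one of each gene was read as its main probe set. This gave 8 probe sets for 5 of the 6 genes, out of 45037 probe sets for 18193 named genes. No probe set was named C3 in the annotation used here, and C3 was not analysed.

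The study grew dendritic cells from the bone marrow of female BALB/c mice of 6 weeks, in medium with 200 U/mL GM-CSF by the labels, and took them as immature cells after 9 days. Its methods section states a higher amount of GM-CSF. Cells were then given [BF/S+L/Ep], a chemically defined extract of Echinacea purpurea, at 75 μg/mL in 0.1% DMSO, or 0.1% DMSO alone, which both groups therefore shared. RNA was taken at 12 h and at 4 h and each of the 8 samples was put on 1 Affymetrix array, which left 2 arrays in each of the 4 groups. The study calls the samples of a group biological and cell culture replicates but does not say whether they came from separate mice or pools, so the p-values measure only the spread between these arrays.

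C1q is the recognition part of the classical pathway of complement. It binds antibody on a target, or dying cells and microbes directly, and starts the cleavage of C3 through the proteases C1r and C1s. In the alternative pathway, C3 with factor B forms the convertase that cleaves more C3, and properdin holds that convertase together. Most complement proteins come from liver, whereas C1q is made mainly by macrophages and immature dendritic cells, and properdin by myeloid cells.

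Values are MAS5 signals, a linear measure of a probe set's brightness that the authors' scaling set to the same trimmed mean of 500.0 on every array. They ran up to between 63008 and 72771 per array, with medians of 86.4 to 103.7. A background reference was taken on each array as the 95th percentile of 86 probe sets for odour, pheromone and taste receptors, and lay at 66.5 to 106.5. All 8 complement probe sets were above it on all 8 arrays, and a given array had 48.8% to 54.9% of its probe sets above it. The dendritic cell label was checked against its markers, of which 11 of 11 exceeded the reference on 4 or more arrays. The same was found for 7 of 10 macrophage, 4 of 9 neutrophil, 2 of 6 stromal and 1 of 5 mast cell and basophil markers, and for 0 of the B cell, T and NK cell, erythroid and hepatocyte lists. The cells were measured in bulk, so fewer cells of a type and less RNA per cell cannot be told apart.

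All 3 C1q chains were brighter at 12 h than at 4 h in both treatments, by 1.22-fold to 1.49-fold on their main probe sets, with no overlap between the arrays of the 2 times. C1qa, the A chain, gave signals of 8003 and 8241 at 12 h against 5929.9 and 5890.5 at 4 h in [BF/S+L/Ep] cells. In DMSO cells it gave 7247 and 7781 at 12 h against 5309 and 5762 at 4 h. Every 12 h array was thus above every 4 h array, and the difference was 0.46 ± 0.10 (log2, SE) or 1.37-fold in [BF/S+L/Ep] cells and 0.44 ± 0.10 or 1.36-fold in DMSO cells. The levels ran from [BF/S+L/Ep] 12 h (8122 ± 168, SD, n = 2) over DMSO 12 h (7514 ± 378) and [BF/S+L/Ep] 4 h (5910.2 ± 27.9) to DMSO 4 h (5536 ± 320.2). The 2 treatments at one time, which were neighbours in this order, did not differ past the threshold of the test given further on.

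C1qb, the B chain, gave 5641.5 and 5854 at 12 h against 3822 and 3889.9 at 4 h in [BF/S+L/Ep] cells on its main probe set, 1437726_x_at. In DMSO cells it gave 6257 and 6189 at 12 h against 4118 and 4327 at 4 h. The 12 h level was 1.49-fold that at 4 h in [BF/S+L/Ep] cells (0.58 ± 0.09, log2, SE) and 1.47-fold in DMSO cells (0.56 ± 0.09). DMSO cells were the brighter ones at both times here, which is the opposite order to that of C1qa, and neither order passed the test of treatment.

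The other 2 probe sets of C1qb were higher at 12 h to different degrees. The probe set 1434366_x_at gave 2914 and 3192.5 at 12 h against 2223 and 2197 at 4 h in [BF/S+L/Ep] cells. In DMSO cells it gave 3555 and 3651 at 12 h against 2335 and 2540.0 at 4 h, a difference of 0.57 (log2) beside 0.46 in [BF/S+L/Ep] cells. Both of these probe sets carry the suffix with which the array's maker marks probes that can bind other transcripts as well. The probe set without that mark, 1417063_at, gave 4577 and 5904 at 12 h against 4157 and 4703 at 4 h in [BF/S+L/Ep] cells, and these arrays overlapped. It gave 4539 and 5404 at 12 h against 4335 and 3936 at 4 h in DMSO cells, without overlap. Its differences of 0.23 ± 0.14 in [BF/S+L/Ep] cells and 0.26 ± 0.14 in DMSO cells (log2, SE) were smaller than those of the main probe set.

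C1qc, the C chain, gave 3166 and 3346 at 12 h against 2586 and 2755 at 4 h in [BF/S+L/Ep] cells. In DMSO cells it gave 3504 and 3715 at 12 h against 2344 and 2525 at 4 h. The 12 h arrays were above the 4 h arrays in each treatment, by 1.22-fold in [BF/S+L/Ep] cells (0.29 ± 0.10, log2, SE) and 1.48-fold in DMSO cells (0.57 ± 0.10). The group means ran in the order DMSO 12 h, [BF/S+L/Ep] 12 h, [BF/S+L/Ep] 4 h and DMSO 4 h from high to low.

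The 3 chains lie side by side on chromosome 4, in the order C1qb, C1qc, C1qa in GRCm38.p6. Their main probe sets moved together over the 8 arrays, with a Pearson r of 0.896 between C1qa and C1qb, 0.911 between C1qa and C1qc and 0.918 between C1qb and C1qc. The C1qb probe set 1417063_at followed them less, with an r of 0.742 with C1qa, 0.723 with C1qc and 0.63 with the main C1qb probe set. These correlations are a description, since the arrays are shared and fall into 2 times. The nearest 3 named genes with a probe set on either side of the cluster, Lactbl1, Tex46, Kdm1a, Epha8, Zbtb40 and Wnt4, included 0 of 6 that changed between the times by limma (0 also at an unadjusted p under 0.05), and 4 of them were under the reference on all 8 arrays. Kdm1a, which encodes a histone demethylase, was at 0.17 ± 0.08 (log2, SE, 12 h minus 4 h, adjusted p = 0.293, limma).

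The 250 bases before the start of C1qb and C1qc, from the RefSeq promoter table of GRCm38.p6, are shown because these 2 neighbours are the C1q promoters that table holds. Both are on the minus strand, C1qb at chr4:136886201-136886450 and C1qc at chr4:136892915-136893164, and capitals mark the matches to 5 motifs searched on both strands. The start is the one used in that table, and for C1qc the RefSeq gene begins further upstream, so the last bases of its window lie inside the gene.
C1qb: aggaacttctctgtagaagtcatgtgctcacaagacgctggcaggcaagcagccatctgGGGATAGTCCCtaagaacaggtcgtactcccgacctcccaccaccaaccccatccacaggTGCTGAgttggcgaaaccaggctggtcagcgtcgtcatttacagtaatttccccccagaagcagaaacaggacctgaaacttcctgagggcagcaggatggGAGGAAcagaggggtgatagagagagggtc
C1qc: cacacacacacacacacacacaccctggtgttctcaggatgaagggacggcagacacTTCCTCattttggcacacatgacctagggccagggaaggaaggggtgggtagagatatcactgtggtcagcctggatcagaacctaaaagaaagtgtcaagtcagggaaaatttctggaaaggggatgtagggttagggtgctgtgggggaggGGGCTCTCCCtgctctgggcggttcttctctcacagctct
Reading 5′ to 3′, C1qb held an NF-kB motif, GGGA and CC separated by 4 bases, on both strands at 191 to 181 bases before the start, where the 2 matches overlap. It then held TGCTGA, a half-site for Maf proteins, at 131 to 126 bases, and GAGGAA, an ETS motif as bound by PU.1, at 30 to 25 bases. C1qc held GAGGAA on the opposite strand at 193 to 188 bases and the NF-kB motif on the opposite strand at 40 to 31 bases. Among all 32851 promoter windows of this length, TGCTGA was found in 16.1%, GAGGAA in 23.3% and the NF-kB motif in 17.6%. The other 2 motifs, GAAA and GAAA separated by 2 bases as in interferon response elements (2.98% of windows) and TTGCNNAA of C/EBP proteins (9.56%), were not found in either, and none of the 5 was found in the window of Cfp. The window of C3, which had no probe set here, held matches to TGCTGA, the NF-kB motif and TTGCNNAA. These matches are letters in a sequence, and binding was not measured.

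**Figure D1:**
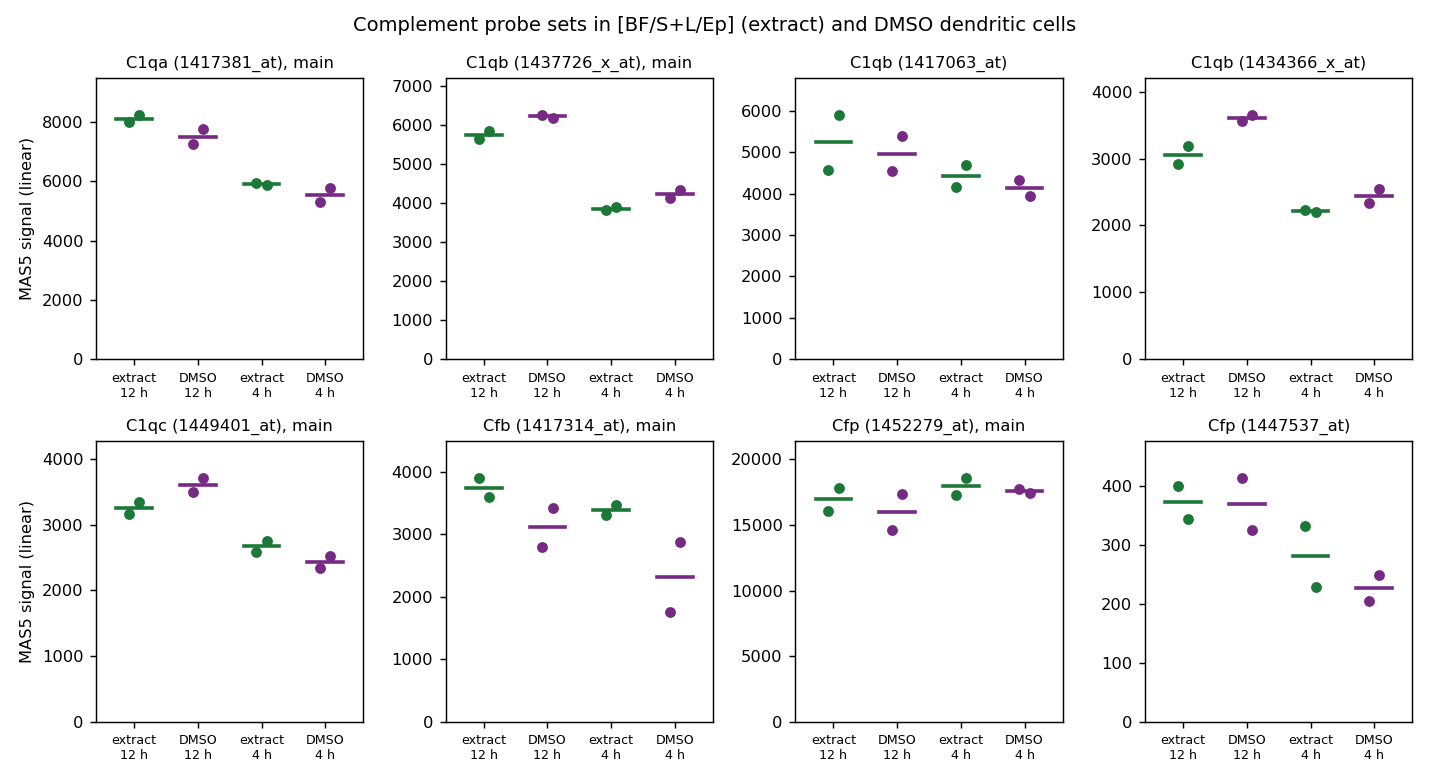
MAS5 signal (linear axis from 0) of the 8 complement probe sets, with 1 point per array and a line at the mean of the 2 arrays of [BF/S+L/Ep] (extract) and DMSO cells at 12 h and 4 h. For C1qa, C1qc and C1qb on 1437726_x_at every 12 h array lies above every 4 h array, whereas the main probe set of Cfp overlaps between the times and 1 DMSO array of Cfb at 4 h lies at 1764.

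Cfb, the serine protease of the alternative convertase, differed by 0.30 ± 0.13 between the times and by 0.43 ± 0.13 between the treatments, each averaged over the other factor (log2, SE). It gave 3908 and 3594.5 at 12 h against 3304 and 3474 at 4 h in [BF/S+L/Ep] cells, without overlap, which is 1.11-fold (0.15 ± 0.18, log2, SE). In DMSO cells it gave 2805.5 and 3421 at 12 h against 1764 and 2871 at 4 h, and these arrays overlapped. The DMSO difference of 0.46 ± 0.18 rested on the 4 h array at 1764, since it was 0.11 without that array and 0.81 without the other 4 h DMSO array. Cfb lies on chromosome 17, and of its 6 nearest named genes, Nelfe, Skiv2l, Dxo, C2, Zbtb12 and Ehmt2, 0 changed between the times by limma, with 1, Ehmt2, at an unadjusted p under 0.05. C2, which encodes the protease of the classical convertase and is the next gene, gave 12.8 to 120.9 and was above the reference on 2 of 8 arrays.

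Cfp, the gene of properdin on chromosome X, did not share the higher level at 12 h on its main probe set. That probe set, 1452279_at, gave 16075 and 17832.5 at 12 h against 17309 and 18602.5 at 4 h in [BF/S+L/Ep] cells. In DMSO cells it gave 14585 and 17349 at 12 h against 17781 and 17456.5 at 4 h. The differences were -0.08 ± 0.11 in [BF/S+L/Ep] cells and -0.15 ± 0.11 in DMSO cells (log2, SE), and that in DMSO cells was -0.02 without the 12 h array at 14585. The order of the groups from high to low was [BF/S+L/Ep] 4 h, DMSO 4 h, [BF/S+L/Ep] 12 h and DMSO 12 h, and all neighbours in it overlapped. The dim probe set 1447537_at went the other way, with 399.5 and 343 at 12 h against 331 and 229 at 4 h in [BF/S+L/Ep] cells and 413 and 324 at 12 h against 204 and 248 at 4 h in DMSO cells. Its differences were 0.43 ± 0.25 in [BF/S+L/Ep] cells and 0.70 ± 0.25 in DMSO cells (log2, SE), and its r with the main probe set over the 8 arrays was -0.739, so the direction of Cfp depends on the probe set.

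Higher signals at 12 h without overlap in both treatments were thus seen for 3 of the 5 measured genes, C1qa, C1qb and C1qc, against 9.18% of all probe sets. Nothing is read from this count or from the medians given next, because the rise with time was known when the genes were chosen. The median difference over the 5 main probe sets was 0.29 in [BF/S+L/Ep] cells and 0.46 in DMSO cells (log2, 12 h minus 4 h), beside 0.02 and 0.03 over all 45037 probe sets.

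Whether the extract moved these genes was tested with limma over all probe sets, with p-values adjusted by Benjamini-Hochberg and a threshold of 0.05. Of the 5 measured genes, 0 passed at 12 h (0.02% of all probe sets did), 0 passed at 4 h (0.00444%) and 0 passed on average over both times (0.107%). A test of whether the response differed between the times passed for 0 of 5 (0% of all probe sets). At an unadjusted p under 0.05 the counts were 0 at 12 h, 1 at 4 h, 1 on average and 0 for the difference, and the gene was Cfb both times. Over all 45037 probe sets those counts were 2684, 2238, 3189 and 1647. Among the further probe sets of these genes, 1434366_x_at of C1qb had an unadjusted p of 0.0375 at 12 h and 0.0223 on average by limma. A rule of at least 2-fold in place of the test also found 0.

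Cfb was the gene with the largest difference between the treatments among the 5 main probe sets. It gave 3908 and 3594.5 in [BF/S+L/Ep] cells against 2805.5 and 3421 in DMSO cells at 12 h, and 3304 and 3474 against 1764 and 2871 at 4 h. The difference was 0.27 ± 0.18 at 12 h (log2, SE; 95% interval -0.11 to 0.66, adjusted p = 0.896, limma) and 0.59 ± 0.18 or 1.51-fold at 4 h (0.20 to 0.98, adjusted p = 0.945). Averaged over the times it was 0.43 ± 0.13 or 1.35-fold (0.16 to 0.71, adjusted p = 0.45, unadjusted p = 0.00483, limma). The 4 h difference was 0.24 without the DMSO array at 1764 and 0.94 without the other DMSO array, and neither passed.

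The C1q chains differed little between the treatments and in unlike directions. C1qa was 0.10 ± 0.07 higher in [BF/S+L/Ep] cells averaged over the times (log2, SE; 95% interval -0.04 to 0.25, adjusted p = 0.791, limma). C1qb was at -0.12 ± 0.07 on its main probe set (-0.27 to 0.02, adjusted p = 0.756). On 1434366_x_at C1qb was at -0.19 ± 0.07 (-0.35 to -0.03, adjusted p = 0.62), and on 1417063_at at 0.08 ± 0.10 (-0.12 to 0.29, adjusted p = 0.897). The 3 probe sets of C1qb thus did not share a direction for treatment.

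C1qc was the one member whose treatment difference turned between the times. It gave 3166 and 3346 in [BF/S+L/Ep] cells against 3504 and 3715 in DMSO cells at 12 h, and 2586 and 2755 against 2344 and 2525 at 4 h. The differences were -0.15 ± 0.10 at 12 h and 0.13 ± 0.10 at 4 h (log2, SE), and the 4 h difference subtracted from that at 12 h gave -0.28 ± 0.15 (95% interval -0.60 to 0.03, adjusted p = 1.0, limma). The same quantity was 0.02 ± 0.14 for C1qa, 0.02 ± 0.13 for C1qb, -0.32 ± 0.25 for Cfb and 0.06 ± 0.16 for Cfp. Cfp averaged 0.06 ± 0.08 between the treatments on its main probe set (-0.11 to 0.23, adjusted p = 0.92) and 0.16 ± 0.18 on the dim one (adjusted p = 0.896).

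**Figure D2:**
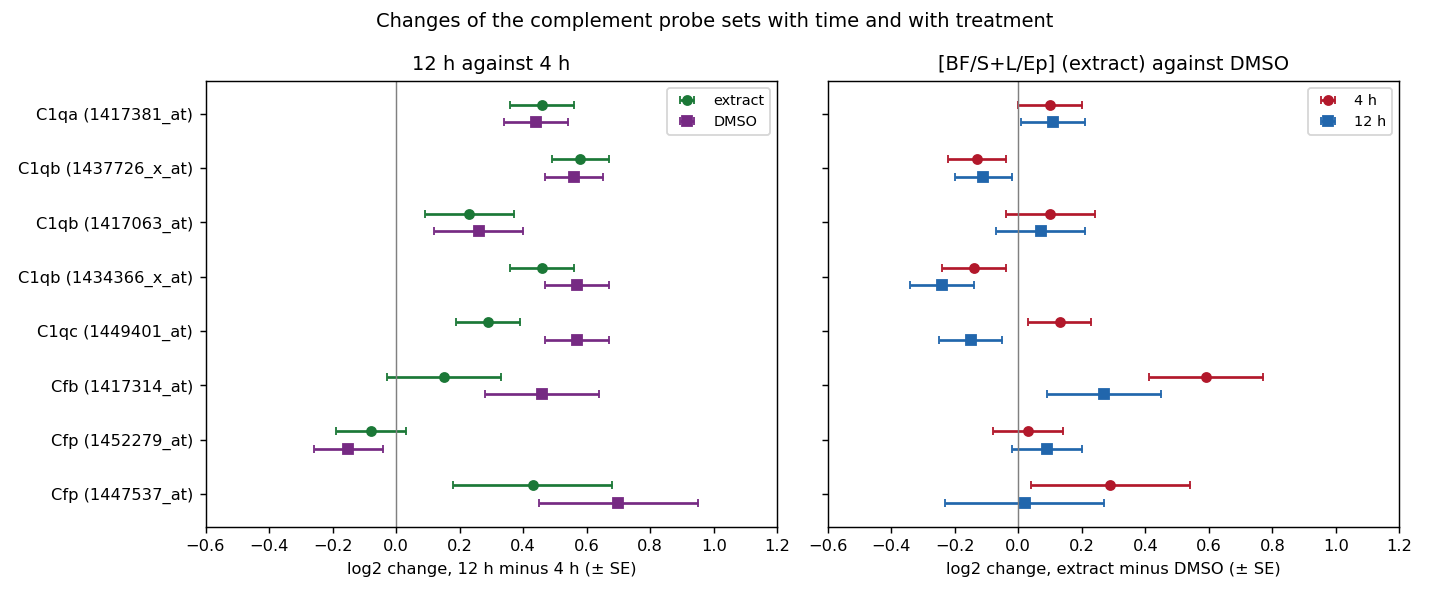
Log2 differences with their standard errors for the 8 complement probe sets, with 12 h minus 4 h in [BF/S+L/Ep] (extract) and DMSO cells on the left and extract minus DMSO at 4 h and 12 h on the right, on the same axis range. The C1q probe sets lie between 0.23 and 0.58 on the left, whereas on the right the point farthest from 0 is Cfb at 4 h (0.59) and no point passed the test across all probe sets.

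The other genes of the complement system were taken from a list of 50, of which 41 were measured and 16 were brighter than the reference on 4 or more arrays. Averaged over both treatments, 4 of the 41 rose between 4 h and 12 h by limma (3.65% of all probe sets rose) and 2 of 41 fell (3.18% fell). The median over the 41 was 0.03 (log2), which was also the median of all probe sets. In each comparison of the treatments 0 of 41 passed by limma, and 4 at 12 h, 0 at 4 h, 4 on average and 3 for the difference between the times were at an unadjusted p under 0.05. The counts over all 45037 probe sets were 2684, 2238, 3189 and 1647. All 6 calls were lost when limma was run without its intensity trend, the relation of variance to brightness.

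The genes that rose were 1 soluble regulator and 3 receptors. Clu encodes clusterin, which binds the terminal complex in fluid, and gave 9282 and 9759.5 at 12 h against 5289.8 and 5072 at 4 h in [BF/S+L/Ep] cells. In DMSO cells Clu gave 9701 and 11112 at 12 h against 6184 and 5131 at 4 h, a change of 0.88 ± 0.08 averaged over the treatments (log2, SE, adjusted p = 2.0e-05, limma). Its 4 probe sets all rose, by 0.88 to 1.10 (log2). C3ar1, the receptor of the C3a fragment, rose by 0.59 ± 0.08 (adjusted p = 4.24e-04), with 3652 and 3726 at 12 h against 2698 and 2238.5 at 4 h in [BF/S+L/Ep] cells and 4245 and 4395 against 2849 and 2883.5 in DMSO cells. C5ar1, the receptor of C5a, rose by 0.81 ± 0.13 (adjusted p = 0.00202, limma), with 666 to 931 at 12 h against 351 to 511 at 4 h over both treatments. Its second probe set was at 0.75 and did not pass (adjusted p = 0.122). Cd93, once described as a C1q receptor, rose by 0.69 ± 0.12 (adjusted p = 0.0026, limma), with 859 to 1266 at 12 h against 524 to 777 at 4 h. Of its 5 probe sets 3 were under the reference on 7 or 8 arrays, and those did not pass.

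The 2 genes that fell were Itgax, the alpha chain of complement receptor 4 and a marker of dendritic cells, and C1qbp, a mitochondrial protein that binds C1q. Itgax gave 15329 and 14431 at 12 h against 19031 and 18833.5 at 4 h in [BF/S+L/Ep] cells, and 13920.3 and 15234 against 18419.6 and 19541 in DMSO cells. It fell by 0.36 on the log2 scale (SE 0.07, adjusted p = 0.0071, limma), and the call was lost without DMSO 4 h replicate 2 (adjusted p = 0.0600) and with arrays centred on their medians (adjusted p = 0.0604). C1qbp fell by 0.45 on the log2 scale (SE 0.08, adjusted p = 0.00433). Itgb2, the beta chain that pairs with Itgax, was at -0.01 ± 0.07, and Itgam, the alpha chain of complement receptor 3, was at -0.05 ± 0.09, and neither passed.

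The measured genes of initiation and of the terminal steps were mostly dim. Of 15 listed genes of classical and lectin initiation 11 were measured, and C1rb, C1s2, C4a and C4b had no probe set named in the annotation. Of the 11, 4 were brighter than the reference on 4 or more arrays, and 0 changed by limma (0 also at an unadjusted p under 0.05). The C1q-bound protease C1ra gave 554 to 729 at 12 h against 516 to 638 at 4 h over both treatments (0.15 ± 0.11, log2, SE, adjusted p = 0.531, limma). The lectin pathway ficolin Fcna was at 0.36 ± 0.23 (adjusted p = 0.463). All 6 measured terminal genes, among them C8a at 33.7 to 123.6 and C8g at 5.1 to 111.5, were above the reference on fewer than 4 arrays. Of 7 membrane regulators 2 were above it, Cr1l, the mouse regulator also called Crry, at -0.11 ± 0.08 (adjusted p = 0.52) and Cd59a at -0.11 ± 0.29 (adjusted p = 0.904). Their dimmer probe sets lay above 0 and did not pass. For Cr1l these were at 0.32 ± 0.15 on 1430131_at (adjusted p = 0.263, limma) and 0.42 ± 0.38 on 1438920_x_at, and for Cd59a at 0.34 ± 0.41. Cfd, the factor D protease that cleaves factor B, and the terminal gene C7 were not analysed.

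**Figure D3:**
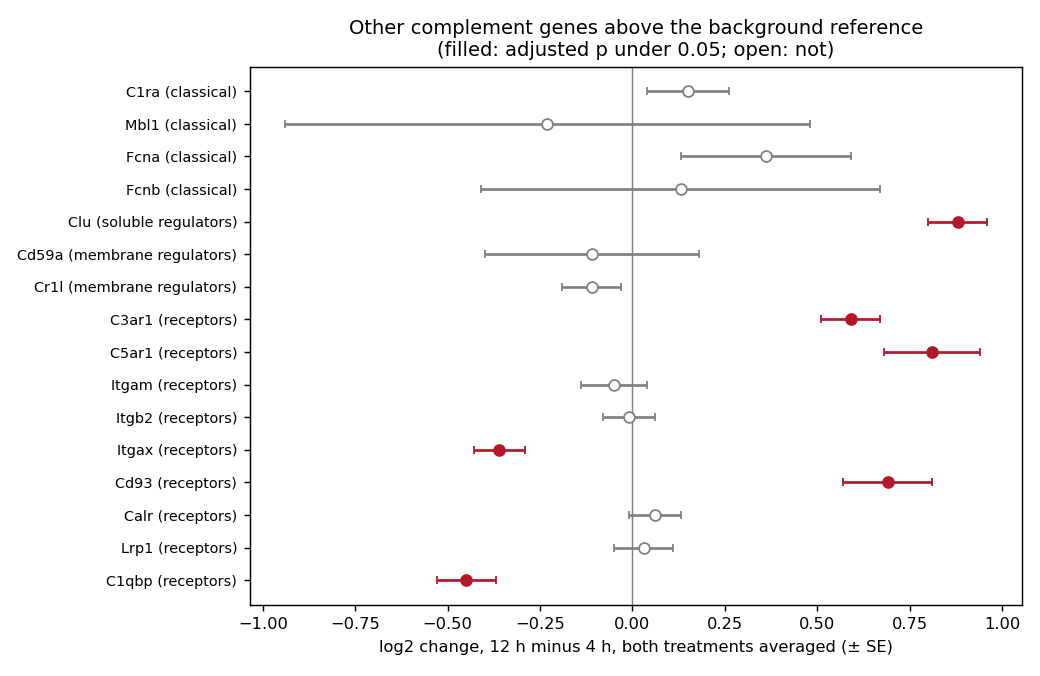
Log2 difference at 12 h minus 4 h, averaged over both treatments, with its standard error, for the main probe sets of the 16 other complement genes that exceeded the reference on 4 or more arrays. Filled points (Clu, C3ar1, C5ar1 and Cd93 to the right of 0, Itgax and C1qbp to the left) passed the adjusted p threshold of 0.05 and open points did not.

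Of 16 transcription factors known to act on promoters of these genes, 13 were measured and brighter than the reference on 4 or more arrays, and 5 rose (3.65% of all probe sets did) and 1 fell (3.18%) with time. Maf, of the family that binds the half-site marked in C1qb, gave 552 and 469.6 at 12 h against 215 and 232 at 4 h in [BF/S+L/Ep] cells and 698 and 624 against 287 and 378 in DMSO cells. It rose by 1.10 ± 0.14 (log2, SE, adjusted p = 3.57e-04, limma). Its 5 dimmer probe sets were at 1.10 to 1.74, of which 1 passed, but each was above the reference on only 0 to 3 of 8 arrays. Among them, 1444073_at was at -0.39 in [BF/S+L/Ep] cells and 2.59 in DMSO cells. The NF-kB subunits Relb (0.93 ± 0.09, adjusted p = 4.9e-05) and Nfkb2 (0.58 ± 0.09, adjusted p = 0.00203) rose, and Rela was at 0.16 ± 0.08 (adjusted p = 0.308). Irf1 (0.52 ± 0.08, adjusted p = 0.00103) and Irf8 (0.41 ± 0.07, adjusted p = 0.00368) rose, and the call of Irf8 was lost with arrays centred on their medians (adjusted p = 0.114). Cebpa fell by 0.35 on the log2 scale (SE 0.07, adjusted p = 0.0106). Its call was lost without DMSO 4 h replicate 2 (adjusted p = 0.066), without DMSO 12 h replicate 1 (0.0548) and without [BF/S+L/Ep] 12 h replicate 2 (0.0539), by limma. Spi1, which encodes PU.1, was at -0.14 ± 0.08 (adjusted p = 0.376) and Cebpb at 0.26 ± 0.08 (adjusted p = 0.0661). In each comparison of the treatments 0 of the 13 passed by limma. Averaged over the times, 5 of the 13 were at an unadjusted p under 0.05, beside 3189 of all 45037 probe sets. Of these, Maf (-0.47 ± 0.14, [BF/S+L/Ep] minus DMSO, log2, SE, adjusted p = 0.476, limma) and Rxra (-0.31 ± 0.12) were lower in [BF/S+L/Ep] cells. Cebpb (0.27 ± 0.08), Nfkb2 (0.21 ± 0.09) and Relb (0.21 ± 0.09) were higher. Irf8 was at 0.13 ± 0.07 on its main probe set and 0.46 ± 0.08 on the dimmer one (adjusted p = 0.0754, limma). The part of these factors in the C1q values was not tested.

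Macrophages are another source of C1q, and their markers did not share a direction between the times. Of 11 macrophage markers 10 were measured and 7 were brighter than the reference on 4 or more arrays. By limma 2 of the 10 rose with time (3.65% of all probe sets did) and 1 fell (3.18%). Adgre1, the F4/80 antigen, gave 2789 and 2749.6 at 12 h against 1158.2 and 1157.7 at 4 h in [BF/S+L/Ep] cells, and 2061 and 2483 against 1144 and 897 in DMSO cells, a rise of 1.21 ± 0.10 (log2, SE, adjusted p = 6.0e-06, limma). Mertk, a receptor for dying cells, rose by 0.53 ± 0.10 (adjusted p = 0.00676), whereas the mannose receptor Mrc1 fell by 0.50 on the log2 scale (SE 0.07, adjusted p = 0.00102). Csf1r (0.01 ± 0.08), Cd68 (0.05 ± 0.07) and Fcgr1 (-0.29 ± 0.08, adjusted p = 0.0547, limma) did not pass. Cd163 did not pass either (0.56 ± 0.25, adjusted p = 0.255, limma), with 1.32 in [BF/S+L/Ep] cells and -0.20 in DMSO cells. The summed signal of the 10 markers, most of it from Csf1r, was 50579 to 53546 at 12 h against 48883 to 52866 at 4 h in [BF/S+L/Ep] cells and 54546 to 55034 against 54405 to 55555 in DMSO cells. Marco was under the reference on all 8 arrays. The part of macrophages in the C1q values was not tested.

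Among the 11 dendritic cell markers Zbtb46 (0.74 ± 0.10, adjusted p = 3.92e-04, limma) and Ccr7 (0.57 ± 0.11, adjusted p = 0.00483) rose with time and Itgax fell. Neutrophils store properdin, and of their 9 measured markers 4 were brighter than the reference on 4 or more arrays. Csf3r, the receptor of G-CSF, rose by 2.14 ± 0.19 (log2, SE, adjusted p = 1.2e-05, limma) and was the only one of the 9 that passed. The other 3 above the reference gave values below 0, S100a8 at -0.18 ± 0.10, S100a9 at -0.42 ± 0.13 and Ngp at -0.53 ± 0.22, and the median over the 9 was -0.42. Elane and Cxcr2 were under the reference on all 8 arrays. The part of neutrophils in the Cfp values was not tested.

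**Figure D4:**
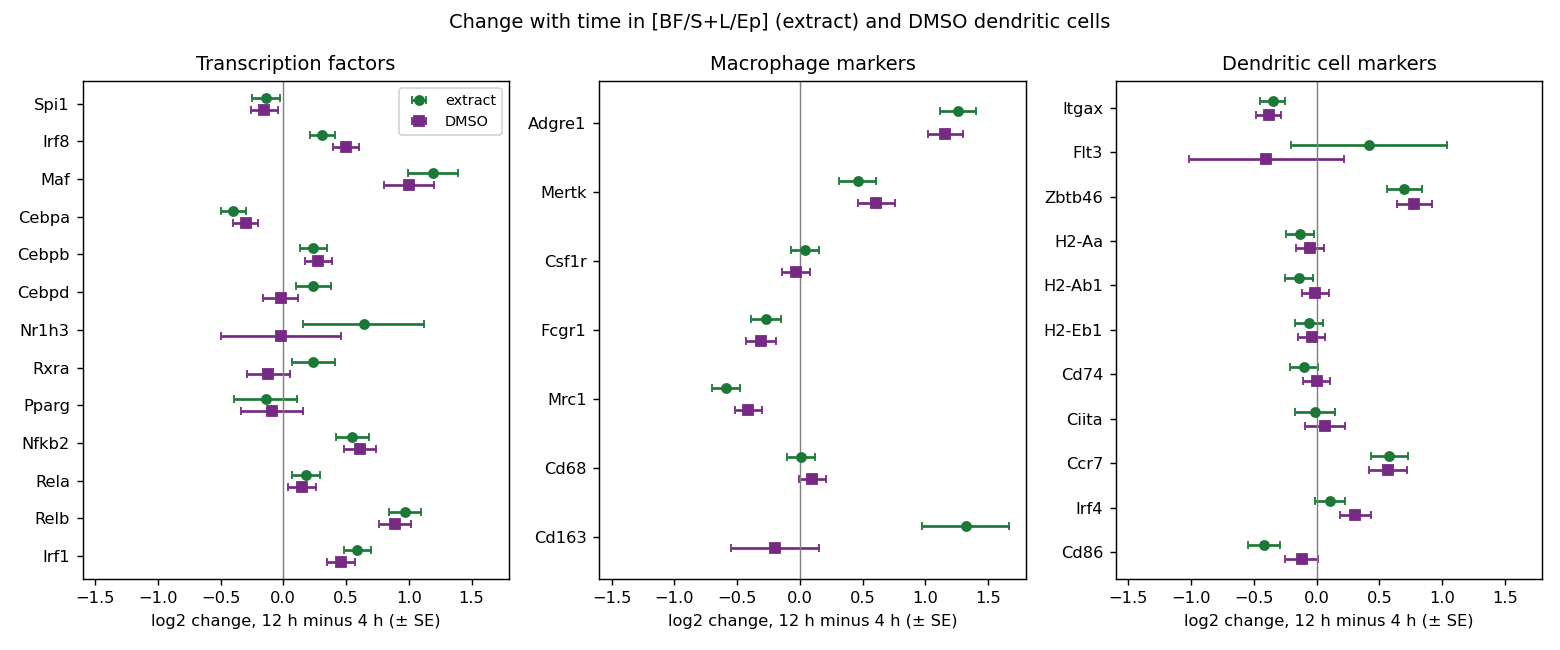
Log2 difference at 12 h minus 4 h with its standard error in [BF/S+L/Ep] (extract, circles) and DMSO cells (squares) for transcription factors, macrophage markers and dendritic cell markers brighter than the reference on 4 or more arrays. Maf, Relb and Adgre1 lie to the right of 0 and Mrc1 and Itgax to the left in both treatments, whereas the MHC class II genes H2-Aa, H2-Ab1 and H2-Eb1 lie within 0.14 of it.

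The genes most like the complement genes over the 8 arrays were ranked by Pearson r among probe sets above the reference on all arrays, as a description that shares the 2 times and their arrays. The mean of the 3 C1q chains, which spanned 0.60 on the log2 scale, was most like Sorl1 (r = 0.997), Sfmbt1 (0.994), Aifm2 (0.991), Stat4 (0.990) and Igf1 (0.989) among 15204 probe sets. Sorl1, a sorting receptor, gave 371 and 477 at 12 h against 133 and 139.6 at 4 h in [BF/S+L/Ep] cells and 476 and 491 against 112 and 132 in DMSO cells. Igf1, a growth factor, gave 1970.5 and 2038 at 12 h against 933 and 829 at 4 h in [BF/S+L/Ep] cells and 1944 and 2101 against 829.7 and 908 in DMSO cells. Both were thus higher at 12 h on every array, by more than the C1q chains were.

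Cfb was most like other genes, Gnptg (r = 0.962), Appbp2 (0.925), Slc9a3r2 (0.922), Rbm6 (0.914) and Il10ra (0.913) among 9645 probe sets. All 5 had their lowest signal on the DMSO 4 h array on which Cfb was at 1764. Il10ra, a chain of the interleukin 10 receptor, gave 1377 and 1264.5 in [BF/S+L/Ep] cells against 1127 and 1248 in DMSO cells at 12 h, and 1083 and 1108 against 792.5 and 956 at 4 h. Cfp was most like Drg1 (r = 0.989), Ube2g2 (0.982), Psmc5 (0.978), Pmm1 (0.976) and Prkar1a (0.976) among 16382 probe sets. All 5 had their lowest signal on the DMSO 12 h array on which Cfp was at 14585. Among the 6 nearest named genes of Cfp on the X chromosome, Timp1, a metalloproteinase inhibitor, rose by 0.63 ± 0.14 (log2, SE, adjusted p = 0.0175, limma) and Uxt fell by 0.42 (SE 0.10, adjusted p = 0.0222), and the other 4 did not pass.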

How the data were processed

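The authors hybridised RNA of 8 samples to Affymetrix Mouse Genome 430 2.0 arrays and deposited 1 table of MAS5 signal intensity per probe set, unlogged and scaled by them to 500.0. MAS5 is named without a version, which was not given in the sources used here. MAS5 corrects each probe with its mismatch, so low signals are noisy. The number of arrays, 2 per group, limits the precision.

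Of 45101 probe sets, 64 controls were left out. GEO's platform annotation gave 34945 of the rest 1 symbol, 932 several and 9160 none. Signals were put on the log2 scale, and the means of the 4 groups were fitted over all 8 arrays with limma 3.58.1 (eBayes with intensity trend, two-sided, R 4.3.3; 4 residual degrees of freedom). The fit was tested on simulated data for the contrast of the times averaged over the treatments, not for the treatment contrasts. Fold changes follow from the log2 differences. Treatments were compared at each time, on average and as a difference between times. The members were chosen as a group for a rise with time, so that contrast carries no p for them. The members and lists were chosen with earlier results of these data known. Named genes were the members, up to 4 called genes per complement role or else the 2 brightest, called transcription factors with Spi1, Irf8, Cebpb and Rela, the 5 most alike genes and the 3 nearest on each side. Likeness required above-reference signals on all arrays and a log2 range of at least 0.5 times the profile's. Alternatives were quantile normalization, median centring, an offset of 50, a filter on dim probe sets, the replicate block, each array left out, eBayes without trend or robust, other probe sets, the arrays of 1 time alone and a 2-fold rule. Sequences and positions are RefSeq's of GRCm38.p6, used for names, neighbours and promoters; the promoter table had no entry for C1qa or Cfb. Some genes of the lists are not reported here.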

Additional observations from a re-analysis of the deposited data

Results flagged for a closer look

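C1qc was flagged because its mean in [BF/S+L/Ep] cells was below that in DMSO cells at 12 h and above it at 4 h. The response at 12 h minus that at 4 h was -0.28 on the log2 scale, and the limma test of this difference did not pass (adjusted p = 1.0). Calr, which encodes calreticulin, a chaperone that can bind C1q on the cell surface, showed the opposite turn. It gave 14419 and 14182 in [BF/S+L/Ep] cells against 12375 and 12300.7 in DMSO cells at 12 h, and 12183 and 12324 against 12809.9 and 13591 at 4 h. Its response at 12 h minus that at 4 h was 0.32, which did not pass either (adjusted p = 1.0, limma). The other 2 probe sets of Calr did not turn in this way.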

How the results depend on the processing

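The count of complement genes C1qa, C1qb, C1qc, Cfb and Cfp that passed for treatment was 0 under every alternative run, with the replicate block included. Without the intensity trend, 0 other complement genes rose and 0 fell with time, against 4 and 2, and 158 probe sets were called for time, against 3079. With arrays centred on their medians 1 other complement gene fell, and 2195 probe sets were called for time. Leaving out each array in turn gave 4 that rose and 1 to 2 that fell, with 1 only without DMSO 4 h replicate 2. The probe sets called for time then numbered 1692 (without DMSO 4 h replicate 2) to 2795. Those called for treatment on average numbered 8 (without DMSO 4 h replicate 2) to 54, against 48. They numbered 31 with centring and 0 without the trend. The dim probe set of Cfp reversed the difference with time, at 0.43 in [BF/S+L/Ep] cells, 0.70 in DMSO cells and 0.56 on average, and the cause was not tested. Centring also lowered the differences of C1qa, C1qb and C1qc with time averaged over the treatments to 0.38, 0.50 and 0.36. The genes higher at 12 h without overlap numbered 3 to 4 over the alternatives. The replicate numbers were not taken to pair the samples, since deviations of same-numbered arrays correlated at -0.085 to 0.263 over the 6 pairs of groups, not above 0.1 in every pair. With the replicate block 3228 probe sets were called for time and 56 for treatment on average. The count without overlap cannot be given with that block.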
